A study of Mus musculus with 6 samples.

Results

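The genes described here encode the matrix metalloproteinases (Mmp genes), the secreted ADAMTS proteases and their ADAMTS-like relatives (Adamts and Adamtsl genes), and the tissue inhibitors of metalloproteinases (Timp genes). These families were chosen with earlier results of these data known, and within them genes were taken by symbol alone. Every Affymetrix probe set annotated to exactly 1 symbol of these families was taken. Each gene was represented by its brightest probe set over the 6 arrays. This gave 42 of the 18193 genes measured, of which 18 were Mmp, 15 Adamts, 5 Adamtsl and 4 Timp genes. Mmp15, Mmp21, Mmp25, Mmp27, Mmp28, Adamts2, Adamts13, Adamts14 and Adamts17 were not analysed here. The 42 genes were read by 78 of the 45037 probe sets tested. RNA came from uterine horns of C57BL6J mice, without the cervix, 2 weeks after surgery. Neither the kind of surgery nor the animals' age is stated in the labels. The SF1 group (genotype Pgrcre/+ SF1LsL/+, 3 arrays) carried an SF1 transgene together with Cre driven from the Pgr gene, so that the transgene is meant to be switched on in cells expressing the progesterone receptor. The control group (SF1LsL/+, 3 arrays) carried the same transgene with no Cre, and its labels call it wild type. Each array held RNA pooled from 2 uteri, so an array is a pool and not an animal, and Cre, the altered Pgr locus and SF1 differed between the groups together.

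Matrix metalloproteinases are zinc-dependent enzymes, secreted or anchored in the cell membrane, that are made as inactive proenzymes and, once activated, cut collagens, gelatins, proteoglycans and many cell surface proteins. ADAMTS proteases bind matrix through thrombospondin repeats and cut large proteoglycans such as versican and aggrecan or trim procollagens, whereas ADAMTS-like proteins share the repeats but have no protease domain. TIMPs block the active site of these enzymes. In the uterus these genes are known from tissue remodelling at implantation, in decidua, in human menstruation and after birth, and progesterone is known to hold down several Mmp genes in human endometrium.

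Of the 42 genes, 27 had at least 1 RefSeq promoter window (GRCm38.p6, from 250 bases before to 50 bases after the annotated start, 30 windows in all). They were searched on both strands for the letters TGANTCA, the site of AP-1 (the Fos and Jun factors, long known as inducers of Mmp genes), and AAGGTCA, the core of the site bound by SF1 and some related nuclear receptors. On mouse chromosome 9 the reference annotation places 10 Mmp genes in 1 stretch, with 3 other annotated genes (2 long noncoding RNAs and 1 pseudogene) among them, and 9 of the 10 were measured. The AP-1 letters were found in 8 of these 9 genes and in 0 of the 18 other genes with a window, and 7.81% of all 32851 windows hold them. The 8 sites are shown in chromosome order so that the shared letters can be compared, with the AP-1 letters in capitals and 12 bases on each side.
Mmp13 (chr9:7272467-7272497, plus strand): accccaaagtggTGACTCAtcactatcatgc
Mmp12 (chr9:7347318-7347348, plus strand): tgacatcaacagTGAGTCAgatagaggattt
Mmp1b (chr9:7388101-7388131, minus strand): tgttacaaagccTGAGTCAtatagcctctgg
Mmp3 (chr9:7445764-7445794, plus strand): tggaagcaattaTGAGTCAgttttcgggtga
Mmp1a (chr9:7464056-7464086, plus strand): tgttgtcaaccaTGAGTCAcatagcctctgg
Mmp10 (chr9:7502267-7502297, plus strand): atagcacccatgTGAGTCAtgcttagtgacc
Mmp20 (chr9:7628124-7628154, plus strand): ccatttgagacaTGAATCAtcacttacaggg
Mmp7 (chr9:7692015-7692045, plus strand): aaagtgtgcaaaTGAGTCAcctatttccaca
The AP-1 letters began between 35 and 95 bases before the start in the 8 genes. The window of Mmp8, the measured gene of the cluster with neither motif, is shown in full because Mmp8 was the most uneven of these genes among the SF1 arrays.
Mmp8 (chr9:7558179-7558478, plus strand): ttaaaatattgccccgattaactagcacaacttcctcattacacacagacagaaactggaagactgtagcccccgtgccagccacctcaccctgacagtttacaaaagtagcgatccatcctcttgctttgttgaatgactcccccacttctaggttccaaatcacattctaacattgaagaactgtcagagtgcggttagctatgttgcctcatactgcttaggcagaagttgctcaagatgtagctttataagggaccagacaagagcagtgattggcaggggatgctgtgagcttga
The SF1 core letters were found in 2 of the 27 genes, neither of them called, and in 4.72% of all windows. They are printed because SF1 is the factor the transgene encodes.
Mmp1a (chr9:7464003-7464033, plus strand): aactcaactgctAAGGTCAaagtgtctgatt
Adamtsl5 (chr10:80348633-80348663, minus strand): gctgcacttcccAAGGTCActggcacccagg
Timp1, which had the largest change, held neither motif. Its window holds TGAGTAA, a variant AP-1 site described in the Timp1 promoter, 27 bases after the annotated start. This additional motif was searched after the window had been read, and 2.68% of all windows hold it (capitals).
Timp1 (chrX:20869916-20870215, plus strand): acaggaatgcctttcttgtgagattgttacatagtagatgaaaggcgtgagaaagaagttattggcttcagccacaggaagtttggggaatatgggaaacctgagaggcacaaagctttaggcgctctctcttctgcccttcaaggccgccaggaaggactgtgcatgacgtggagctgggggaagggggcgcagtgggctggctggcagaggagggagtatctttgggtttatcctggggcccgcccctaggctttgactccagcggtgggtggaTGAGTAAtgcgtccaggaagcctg
None of the 6 called genes with a window held the TGANTCA letters. A match or its absence describes these letters only and says nothing of binding.

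Nr5a1, the gene of the SF1 transgene, read 151, 151 and 151 intensity units in SF1 arrays and 139, 172 and 145 in control arrays on its brighter probe set. Whether that probe set lies in the transgene is not known here, so it checks nothing. Pgr read 1932, 1719 and 2027 in SF1 arrays, against 4899, 4747 and 4744 in control arrays. Array medians lay between 149.9 and 159.6 in SF1 and between 159 and 162.2 in control, and markers of uterine stroma, epithelium and smooth muscle were bright in every array. SF1 replicate 2 stood apart in neutrophil and acute inflammatory genes, described with the genes it touches. Over all probe sets, control replicate 2 had the lowest mean correlation with its own group (0.9888, the other arrays between 0.9908 and 0.9925). Beta-actin signal at the 3' end over that at the 5' end, a sign of RNA quality, lay between 2.12 and 2.34 in SF1 arrays and between 2.385 and 2.58 in control arrays. The same ratio of Gapdh overlapped between the groups, with values between 1.469 and 1.66 in SF1 arrays and between 1.527 and 1.697 in control arrays. The part of RNA quality in any result was not tested.

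Most genes of the 3 families did not reach the threshold for a difference, which does not show that they were unchanged. The largest falls were those of proteases active on gelatin and proteoglycans. At an adjusted p under 0.05 in limma's fit over all probe sets (called below), 12 of the 42 genes differed between SF1 and control, 28.6% of them, while 16.5% of all genes were called. Higher in SF1 were 4 genes, Timp1, Adamts8, Adamtsl3 and Mmp23, which is 9.52% against 8.37% of all genes. Lower were 8 genes, Adamts5, Mmp2, Adamts1, Adamts12, Adamts6, Adamts19, Adamts7 and Adamtsl4, which is 19.0% against 8.11% of all genes. Of the 12 called genes, 2 (Timp1 and Adamts5) differed by at least 2-fold, as did 17.9% of all called genes. The median log2 change was -0.12 over the 42 genes and -0.05 over all genes. The SF1 and control arrays did not overlap for 22 of the 42 genes (52.4%), among them all 12 called, against 39.9% of all genes. These shares are descriptions with no test of their own, and in bulk RNA fewer cells of a type and less RNA per cell cannot be told apart.

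**Figure D1:**
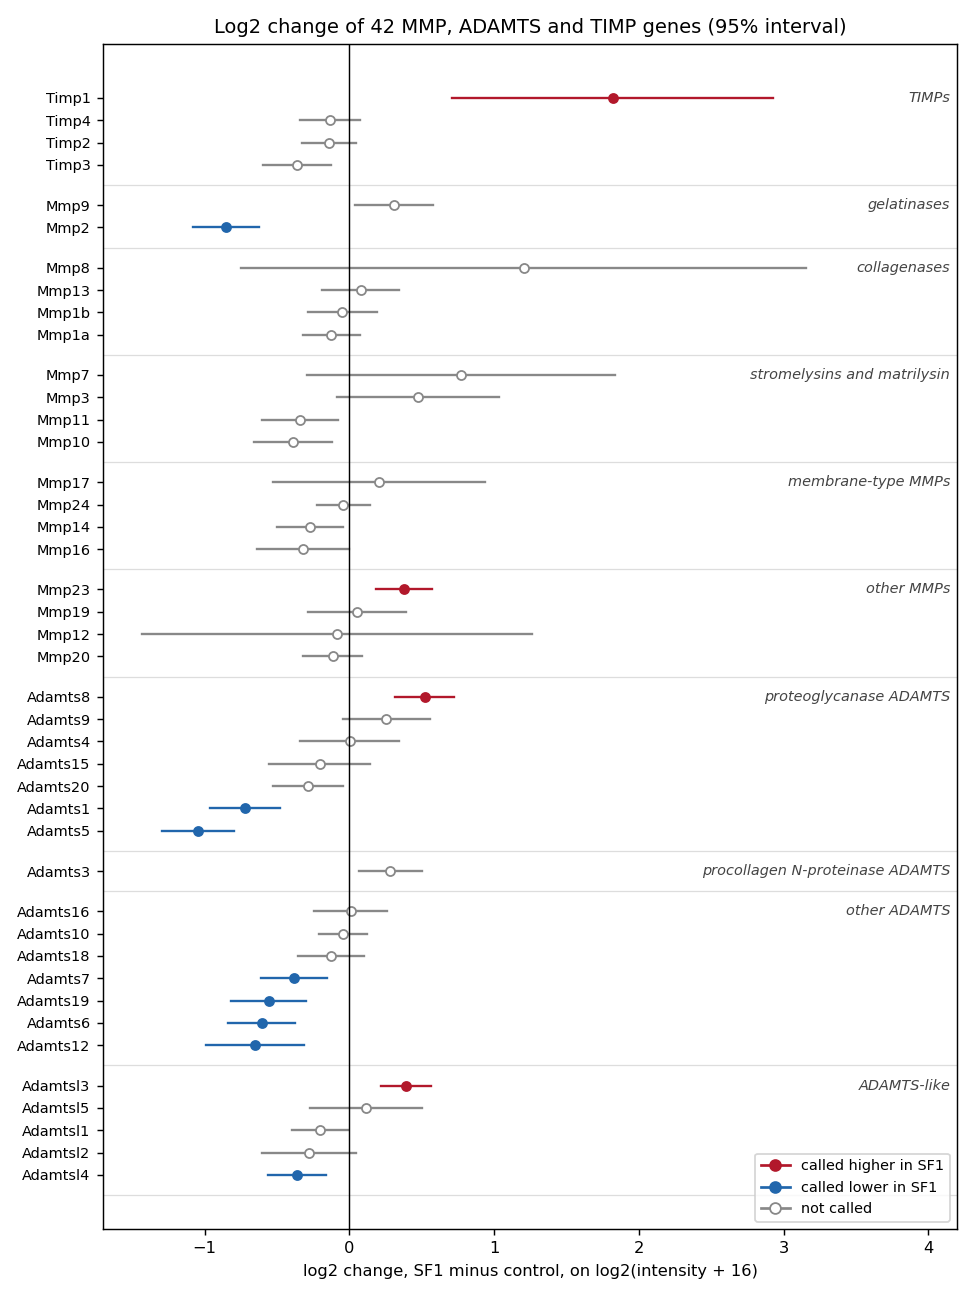
Log2 change (SF1 minus control, on the log2 of intensity plus 16, horizontal axis) of the 42 genes by family, with points for the estimate, bars for limma's 95% interval and 3 arrays a group. Filled points are called, and the widest intervals are those of Mmp8, Mmp12, Timp1 and Mmp7.

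Of the 4 TIMP genes, 1 rose and 0 fell, while 8.37% of all genes rose and 8.11% fell. Timp1, the secreted inhibitor best known for its induction in inflamed tissue, read 442, 1094 and 193 intensity units in SF1 replicates 1 to 3, against 125, 101 and 132 in control replicates 1 to 3. Every SF1 array read above every control array, but the SF1 arrays also differed widely among themselves. The log2 change was 1.82 ± 0.49 (SE), which is 3.53-fold (limma adjusted p = 0.0407). The call was lost without SF1 replicate 1 (adjusted p = 0.107), control replicate 1 (0.0942), control replicate 2 (0.0854) or control replicate 3 (0.0854), and without SF1 replicate 2 the change was 1.20 (0.0442). Without SF1 replicate 3 it was 2.41 (0.00398). Timp1 had 1 probe set.

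Timp2, which inhibits Mmp2 and also helps Mmp14 to activate it, was not called. It read 5757, 5290 and 6030 in SF1, against 6072, 6281 and 6477 in control (log2 change -0.14, 95% interval from -0.33 to 0.04, adjusted p = 0.277), and its other 5 probe sets, between -0.20 and 0.17, were not called either. Timp3, which stays bound to matrix and also inhibits several ADAMTS proteases, read 3462, 3304 and 4099 in SF1, against 4355, 4989 and 4573 in control. Its groups did not overlap, yet its log2 change of -0.36 ± 0.10 just missed the threshold (adjusted p = 0.0512). Another Timp3 probe set was called lower (-0.40, adjusted p = 0.0379), and the other 2 were not. Timp4, known mainly from heart and fat, read 141, 159 and 153 in SF1 and 151, 184 and 168 in control on its brighter probe set (-0.13, adjusted p = 0.362). Its dimmer probe set gave another picture, with 102, 72.6 and 130 in SF1, against 26, 48.6 and 43.6 in control (1.08 ± 0.21, adjusted p = 0.00957). The 2 Timp4 probe sets differed in direction, and which of them reads the transcript better is not known here.

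Among the gelatinases, Mmp2 fell. Mmp2 (gelatinase A), an enzyme of stromal cells that cuts denatured collagen and basement membrane collagen, read 2694, 2945 and 2456 in SF1, against 4650, 4605 and 5405 in control. The highest SF1 array lay well below the lowest control array. The log2 change was -0.85 ± 0.10 (adjusted p = 0.000803), and it was called without any 1 of the 6 arrays, between -0.92 and -0.78. The other Mmp2 probe set had the same sign and was called (-0.80, adjusted p = 0.00315). Mmp14, the membrane-anchored activator of Mmp2, read 3204, 2929 and 2531 in SF1, against 3645, 3384 and 3419 in control, with groups that did not overlap. Its change of -0.27 ± 0.10 was not called (adjusted p = 0.106), while 1 of its other 2 probe sets was (-0.40, adjusted p = 0.0335). Reck, a membrane-anchored inhibitor of Mmp2, Mmp9 and Mmp14, is not a member of these families but fell too, with 1230, 1150 and 1239 in SF1, against 1637, 1674 and 1565 in control (-0.43, adjusted p = 0.0071).

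The aggrecan- and versican-cutting ADAMTS genes held the largest fall and also a rise. Of 7 measured, 1 rose, 2 fell and 4 were not called, while 8.37% of all genes rose and 8.11% fell. Adamts5, an aggrecanase known from mouse cartilage, read 259, 339 and 264 in SF1, against 632, 597 and 589 in control. Every SF1 array lay far below the lowest control array. Its log2 change was -1.05 ± 0.11 (adjusted p = 0.000409), nearly the same on a second probe set (-1.04, adjusted p = 0.000256) and smaller and not called on the other 2 (-0.37 and -0.35). Adamts1, known in mouse ovary as a target of the progesterone receptor and needed for ovulation, read 633, 724 and 551 in SF1, against 1043, 1024 and 1093 in control (-0.72 ± 0.11, adjusted p = 0.00254). The reference annotation places Adamts1 and Adamts5 on chromosome 16 with 1 annotated gene between them, and both fell without any 1 array.

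Adamts8, described as an inhibitor of blood vessel growth in experimental assays, rose. It read 142, 148 and 165 in SF1, against 92.6, 107 and 104 in control, with no overlap (0.52 ± 0.09, adjusted p = 0.00557). The adjacent gene on chromosome 9, Adamts15, read 165, 245 and 171 in SF1 and 201, 211 and 259 in control, and its groups overlapped (-0.20, adjusted p = 0.402). The difference between these neighbours was not tested. Adamts9, Adamts4 and Adamts20 were not called (0.25, 0.00 and -0.29). Adamts3, the procollagen N-proteinase gene measured, read 183, 192 and 173 in SF1, against 160, 155 and 129 in control, and was not called (0.28, adjusted p = 0.0872). Its dimmer probe set had the opposite sign and was not called either (-0.21, adjusted p = 0.18).

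Of the 7 other ADAMTS genes, 0 rose and 4 fell, while 8.37% of all genes rose and 8.11% fell. Adamts12, which with Adamts7 can cut the cartilage protein COMP, read 206, 193 and 130 in SF1, against 271, 278 and 299 in control (-0.66 ± 0.15, adjusted p = 0.021). Adamts7 read 112, 138 and 143 in SF1, against 167, 175 and 184 in control (-0.38 ± 0.10, adjusted p = 0.0368). Adamts6, which acts on fibrillin microfibrils together with its relative Adamts10, read 212, 216 and 200 in SF1, against 319, 377 and 291 in control. Its change of -0.61 ± 0.10 (adjusted p = 0.00539) held without any 1 array, while Adamts10 gave -0.04, with a 95% interval from -0.21 to 0.12 (adjusted p = 0.72). The second probe sets of Adamts12 (-0.35, adjusted p = 0.0547) and Adamts6 (-0.38, adjusted p = 0.0636) were lower too but not called. Adamts19 read 97.2, 107 and 113 in SF1, against 169, 187 and 137 in control (-0.56 ± 0.11, adjusted p = 0.0136).

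The groups overlapped for none of these 4 genes, nor for any of the 12 called, while 39.9% of all genes did not overlap. However, 3 of the calls were lost when some single arrays were left out. Adamts7 was called in 1 of the 6 fits that left out an array (highest adjusted p = 0.101, without SF1 replicate 1). It kept its call only without SF1 replicate 3 (0.0454). Adamts12 lost its call without control replicate 1 (0.0557) or 3 (0.0666), and Adamts19 without SF1 replicate 1 (0.0571) or control replicate 1 (0.0536). Adamts16 and Adamts18 were not called on their brighter probe sets (0.01 and -0.13), although the dimmest of the 3 Adamts18 probe sets was called higher (0.40, adjusted p = 0.0318).

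The ADAMTS-like genes moved in both directions. Adamtsl3 read 171, 161 and 160 in SF1, against 121, 127 and 117 in control (0.39 ± 0.08, adjusted p = 0.0102), a rise of 1.31-fold that was called without any 1 array. Adamtsl4, a partner of fibrillin microfibrils known from the eye's lens fibres, read 344, 385 and 342 in SF1, against 480, 482 and 428 in control (-0.36 ± 0.09, adjusted p = 0.028). That call was lost without SF1 replicate 1 (0.0959), SF1 replicate 3 (0.0892), control replicate 1 (0.0904) or control replicate 2 (0.0725). Adamtsl1 was not called on its brightest probe set (-0.20, adjusted p = 0.153), but both of its other probe sets were called lower (-0.45 and -0.37). Adamtsl2 and Adamtsl5 were not called (-0.28 and 0.11).

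**Figure D2:**
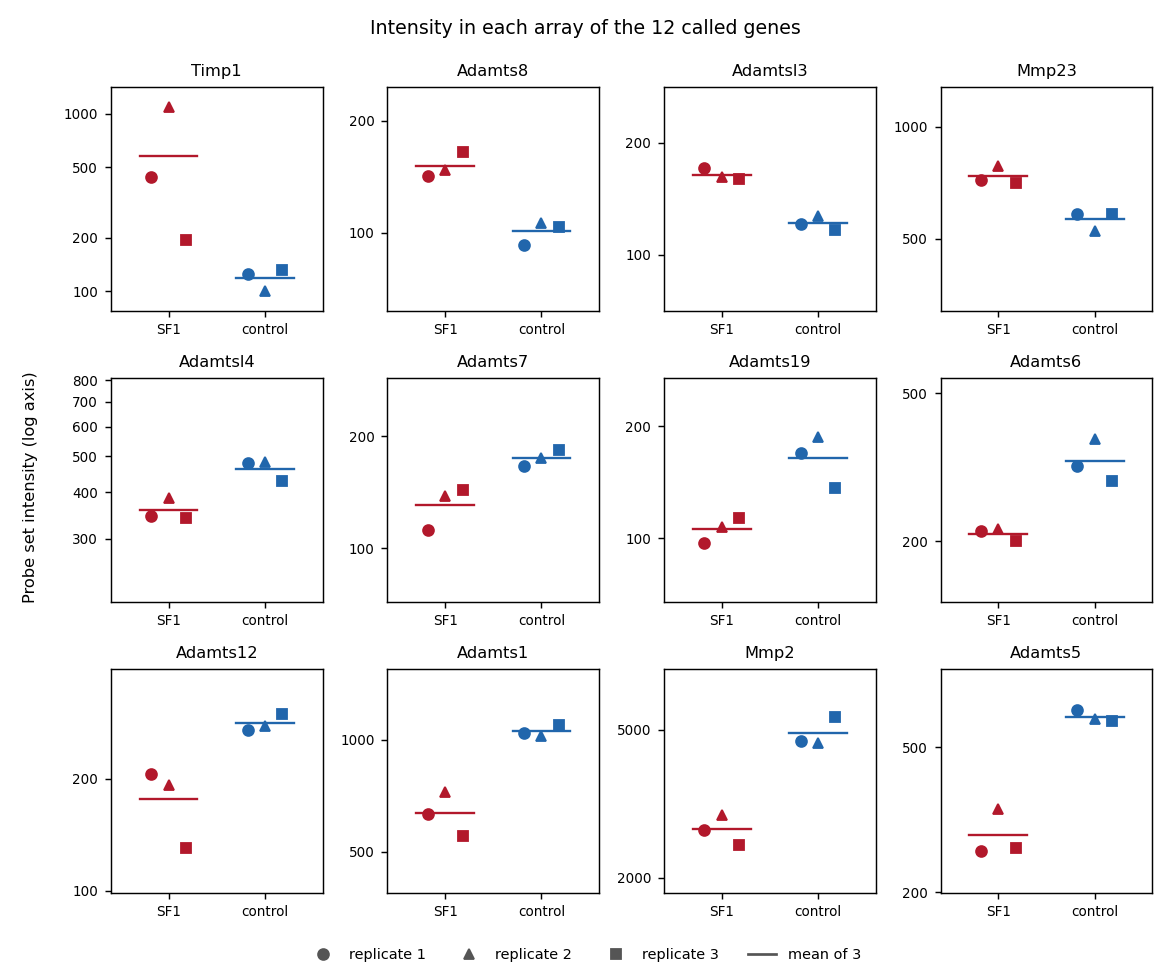
Intensity of the representative probe set (log axis) in each SF1 array and each control array for the 12 called genes, ordered from the highest to the lowest log2 change. Symbols mark replicates and lines the mean of 3 arrays. No panel shows overlap, and Timp1 has by far the widest spread among SF1 arrays.

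Mmp23 was the Mmp gene that rose. It encodes a small membrane-bound protease that lacks the usual hemopexin domain and is known from the ovary. It read 717, 782 and 705 in SF1, against 583, 523 and 583 in control (0.38 ± 0.08, adjusted p = 0.0197), and its second probe set was also called (0.32, adjusted p = 0.0272). The call was lost without SF1 replicate 1 (0.0539), SF1 replicate 2 (0.0695) or control replicate 2 (0.0551).

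**Figure D3:**
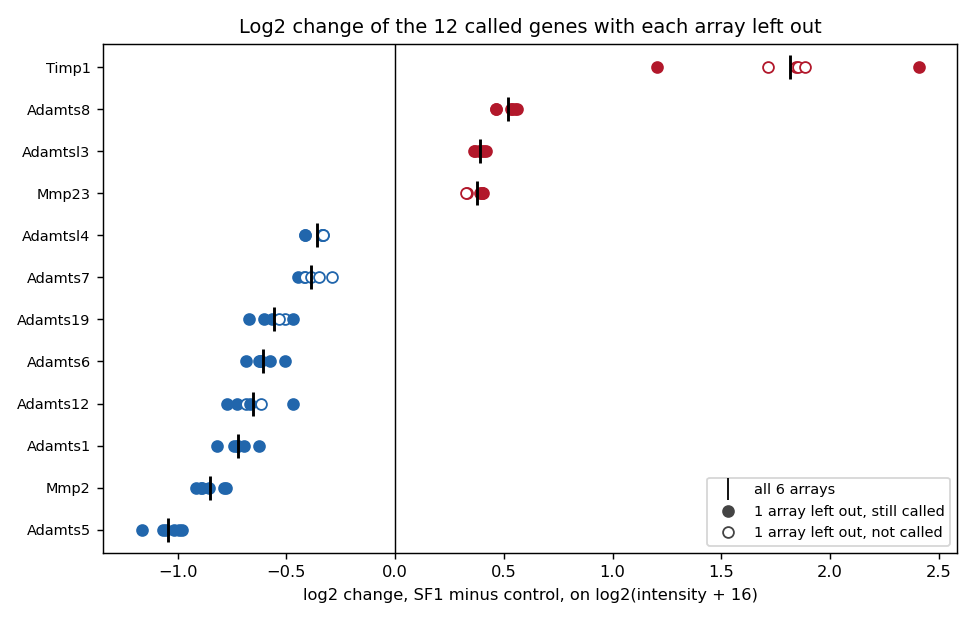
Log2 change of the 12 called genes (horizontal axis) with all 6 arrays (vertical ticks) and with each array left out in turn (points, filled where still called). No gene changed direction, and 6 of the 12 (Adamts1, Adamts5, Adamts6, Adamts8, Adamtsl3 and Mmp2) were called in every such fit.

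Several Mmp genes of inflamed tissue were high in a single SF1 array. Mmp8, the collagenase stored in neutrophil granules, read 32.5, 606 and 29.3 in SF1 replicates 1 to 3, against 32.6, 29.6 and 34.6 in control. Apart from SF1 replicate 2 the groups were at one level. Its log2 change was 1.20 with a 95% interval from -0.75 to 3.15 (adjusted p = 0.378), and without SF1 replicate 2 it was -0.04 (0.806). Mmp7 (matrilysin), an epithelial enzyme, read 264, 1041 and 232 in SF1, against 249, 242 and 201 in control (0.77, adjusted p = 0.305). Mmp3 (stromelysin-1), made by activated stromal cells, read 194, 378 and 173 in SF1, against 177, 142 and 176 in control (0.47, adjusted p = 0.232). Mmp9 (gelatinase B), also stored in neutrophils, read 269, 318 and 233 in SF1 and 203, 210 and 237 in control on the probe set with the higher mean log2 value (0.31, adjusted p = 0.123). Its other probe set read 208, 555 and 218 in SF1 and 191, 191 and 150 in control (0.69, adjusted p = 0.184), with every SF1 array above every control array. None of these 4 genes was called.

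At least 1.5-fold higher in SF1 replicate 2 than in either other SF1 array were 5 of the 42 genes (11.9%), namely Mmp8, Mmp7, Timp1, Mmp3 and Mmp12, against 1.07% of all genes. The 8 measured neutrophil markers summed to 22738 intensity units in that array, against 1095 and 805 in the other SF1 arrays and between 635 and 1261 in control. Most of the sum in that array came from S100a8 and S100a9, with S100a9 at 9468 units. S100a8, a granulocyte calcium-binding protein gene, had 11518 units in SF1 replicate 2, 327 in SF1 replicate 1 and 192 in SF1 replicate 3, against values between 75.2 and 337 in control. Csf3r, the granulocyte growth factor receptor gene, had 564, 169 and 118 units in the same arrays, against values between 116 and 130 in control. Mpo and Elane, granule enzyme genes made mainly in bone marrow precursors, read 87.6 and 64.1 in SF1 replicate 2, each within the range of the other arrays. None of the 8 markers was at 0 in any array, and between the groups limma called 0, with 0 at an unadjusted p under 0.05. The share of all genes under that unadjusted threshold was not counted, here or for the lists below. The 8 acute inflammatory genes share S100a8 and S100a9 with the neutrophil list, and the lists were chosen with earlier results of these data known. Their sum was 39625.5 in SF1 replicate 2, against 7206 and 4744 in the other SF1 arrays and between 1170 and 1615 in control. This height is therefore no separate support for that of the neutrophil markers. Of these 8, Cxcl5 and Lcn2 rose, also without SF1 replicate 2, and 0 fell, while 8.37% of all genes rose. Their part in the values of Timp1 and of the Mmp genes was not tested.

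**Figure D4:**
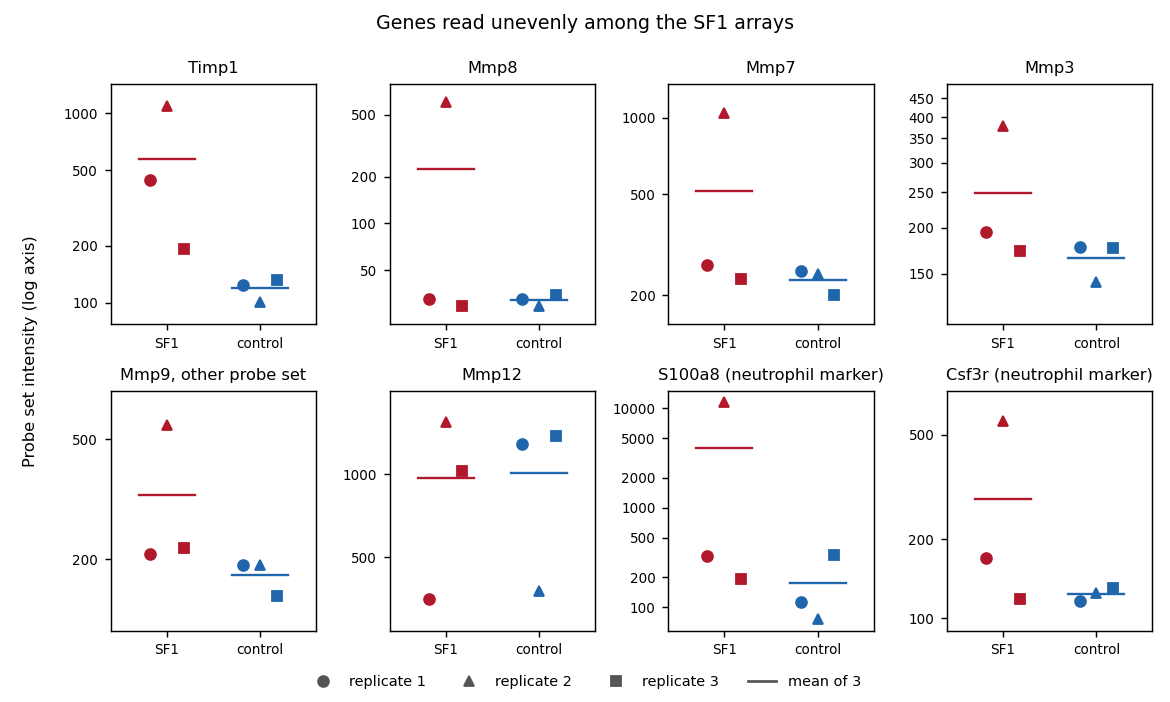
Intensity (log axis) in each array of Timp1, Mmp8, Mmp7, Mmp3, the second Mmp9 probe set and Mmp12, beside 2 neutrophil markers. Symbols mark replicates and lines the mean of 3 arrays. SF1 replicate 2 (triangle) is the highest SF1 array in each panel.

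Mmp12 and Mmp17 were uneven in another way. Mmp12, the elastase of macrophages, read 352, 1537 and 1023 in SF1 and 1289, 377 and 1368 in control. Its low arrays were SF1 replicate 1 and control replicate 2, so the groups overlapped across nearly their whole range (-0.08, 95% interval from -1.43 to 1.26, adjusted p = 0.939). Of 11 macrophage and monocyte markers 8 rose and 0 fell, while 8.37% of all genes rose and 8.11% fell. The markers summed to 16101, 20502 and 14106 in SF1, against 11626, 7670 and 11813 in control. That sum was lowest in control replicate 2, where Mmp12 was also low, but not low in SF1 replicate 1. The number of risen macrophage markers was 3 without SF1 replicate 1 and 4 without SF1 replicate 2. Calls over all genes also went down in these fits, from 2998 to 1933 and 2163. Mmp17, a membrane-anchored protease, read 233, 310 and 252 in SF1 and 317, 115 and 310 in control, with control replicate 2 low (0.20, adjusted p = 0.704). Without that array its change was -0.24 (0.256).

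The other Mmp genes gave no call. Mmp11 (stromelysin-3), a stromal gene of remodelling tissue, read 1149, 877 and 1033 in SF1, against 1170, 1401 and 1302 in control. The groups did not overlap, but the highest SF1 and lowest control array lay close together (-0.34 ± 0.12, adjusted p = 0.0874). Mmp10 (stromelysin-2) was also lower in every SF1 array, with 204, 258 and 232, against 350, 307 and 269 in control (-0.39 ± 0.12, adjusted p = 0.062). Mmp16 gave -0.32 (adjusted p = 0.166), although another of its probe sets was called lower (-0.47, adjusted p = 0.00502). Mmp13, the main interstitial collagenase of rodents, and Mmp1a, Mmp1b and Mmp20, the enamel protease, read between 9.22 and 35.8 in all arrays. These 4 genes and Adamts20 were the 5 below the lower quartile of all probe sets (69.1). Mmp19 and Mmp24 gave 0.05 and -0.04.

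In the chromosome 9 cluster limma called 0 of 9 genes, and 1 (Mmp10) had an unadjusted p under 0.05. Over all genes limma called 16.5%, with 8.37% higher and 8.11% lower. Of 7 AP-1 factor genes measured, 3 (Fos, Junb and Fosl2) rose and 0 fell, with Fos at 687, 1036 and 506 in SF1, against 398, 216 and 284 in control (1.25, adjusted p = 0.0172), and Junb at 704, 1148 and 630, against 465, 486 and 433 in control (0.77, adjusted p = 0.0324). The count was 0 without SF1 replicate 1 or control replicate 3 and 1 without control replicate 1 or 2. Fos lost its call without SF1 replicate 1 or control replicate 3 (highest adjusted p = 0.0548), Junb without SF1 replicate 1 or any control replicate (highest 0.0908), and Fosl2 in all 6 such fits (highest 0.116).

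Probe sets of the same gene gave a further view. Of the 78 probe sets, 7 were called higher and 15 lower, against 5.88% of all probe sets higher and 8.08% lower. Among the 12 called genes, 5 had another probe set. In 3 of these (Adamts5, Mmp2 and Mmp23) another was called the same way, and in 0 the opposite way. Among the 30 genes not called, 6 had another probe set that was called, higher for Timp4 and Adamts18 and lower for Adamtsl1, Mmp14, Mmp16 and Timp3.

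**Figure D5:**
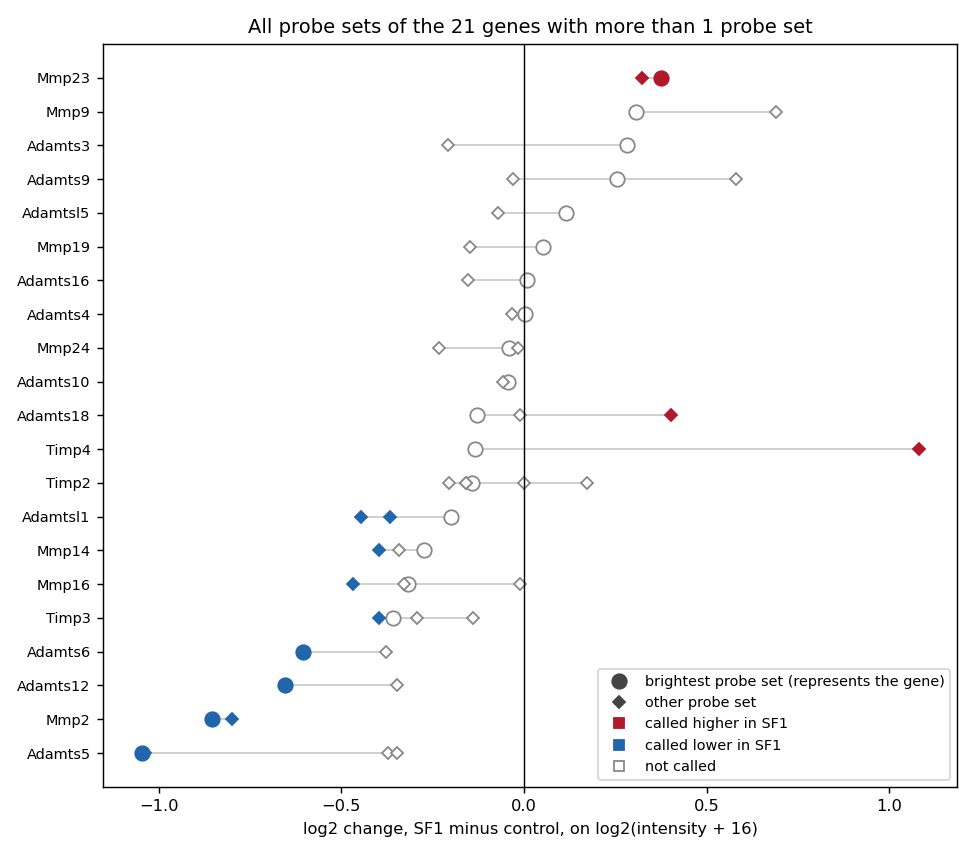
Log2 change (horizontal axis) of every probe set of the 21 genes with more than 1 probe set. Circles are the probe sets that represent the gene and diamonds the others, filled where called. Mmp2 and Mmp23 probe sets lie close together, while those of several genes, among them Timp4, Adamts18 and Adamts3, fall on both sides of 0.

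Enzymes that activate proenzymes changed in both directions. Of 8 genes of activation and the plasminogen system, 2 rose and 1 fell, while 8.37% of all genes rose and 8.11% fell. Pcsk6, a proprotein convertase, read 346, 330 and 337 in SF1, against 154, 147 and 173 in control (1.02 ± 0.08, adjusted p = 0.000108), and its relative Pcsk5 rose by 0.48 on the log2 scale (adjusted p = 0.00679). Plat, the tissue plasminogen activator, read 2679, 2697 and 2445 in SF1, against 4122, 4457 and 4022 in control (-0.68 ± 0.08, adjusted p = 0.000887). The calls of all 3 genes held without any 1 array. None of these groups overlapped, and nor did those of 39.9% of all genes. Of 5 inhibitors other than TIMPs, only Reck was called.

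Of 9 ADAM proteases, 1 rose and 1 fell. Over all genes 8.37% were called higher and 8.11% lower, and no list here was tested against these shares. Adam8, a leukocyte protease, read 299, 573 and 359 in SF1, against 205, 127 and 212 in control (1.09, adjusted p = 0.0207), and was highest in SF1 replicate 2. Adam12 was lower (-0.37, adjusted p = 0.032), a call kept only without SF1 replicate 3 (highest adjusted p otherwise 0.0967). Of 11 genes for other proteases and for the ADAMTS-like matrix proteins Papln and Thsd4, Ctsl, a lysosomal cathepsin, rose (0.32, adjusted p = 0.0487), a call lost whichever array was left out (highest 0.136). None of 10 matrix substrate genes, among them versican (Vcan), aggrecan (Acan) and fibrillar collagens, and none of 4 surface inducers and clearance receptors was called by limma, with 0 and 2 at an unadjusted p under 0.05.

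Markers of several cell types also differed between the groups, while which cells made these enzymes was not measured. Over all genes 8.37% were called higher and 8.11% lower. Of 9 stromal markers, 0 rose and 5 fell, and their sum lay between 43819 and 46059 in SF1 and between 51420 and 53538 in control. Pdgfra read 4000, 3713 and 3843 in SF1, against 6220, 6491 and 6405 in control, while Vim and Lum were not called (-0.02 and 0.06). All 6 endothelial markers were lower, and their sum lay between 2491 and 2905 in SF1 and between 4065 and 4177.5 in control. Pecam1 and Tie1 were each called in 1 of the 6 fits that left out an array, and the other 4 in all. Of 7 smooth muscle markers limma called 0, with 2 at an unadjusted p under 0.05. Of 8 epithelial markers 4 rose and 1 (Krt19) fell. Only 2 rose without SF1 replicate 1, and Krt19 was called in 2 of the 6 fits with an array left out. Of 8 mast cell markers 4 rose and 0 fell, with 3 or 4 rising whichever array was left out. Of 6 motile cilium markers 5 rose, also without any 1 array. Of 5 fat cell markers 2 (Retn and Thrsp) fell. That count was 3 without SF1 replicate 1, 2 without control replicate 1 and 1 without any other array, and Retn, whose groups overlapped, was called in 2 of the 6 fits. The part of these cell types in the falls of Mmp2, Adamts1, Adamts5 and the other genes was not tested.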

How the data were processed

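RNA from 6 pools of mouse uterus was hybridised to Affymetrix Mouse Genome 430 2.0 arrays, 1 colour and 3 arrays a group. The values used are linear intensities per probe set as the authors deposited them; the software and normalization that made them are not given in the sources used here. No further scaling was applied. After leaving out 64 control probe sets, log2 of intensity plus 16 was fitted over 45037 probe sets with limma 3.58.1 (lmFit and eBayes, R 4.3.3), with Benjamini-Hochberg adjustment over all of them, and probe sets with an adjusted p under 0.05 were called. Fold changes are on this scale, which understates changes of dim probe sets. Probe sets were named from GEO's platform annotation: 34945 had 1 symbol, 932 several and 9160 none. Of the 34945, 34741 matched GRCm38.p6 by gene ID with the symbol already current, and 204 had a gene ID absent from it. Each gene was represented by the probe set with the highest mean log2 value over the 6 arrays, without regard to group. By rule, called members, the 4 Timp genes and members with 1 of the 5 highest mean intensities are given in every array, and up to 2 called genes in each direction are named from each related list; other genes shown by array, and the marker genes named, were chosen after their values were seen. The members and lists were chosen with earlier results of these data known. The labels do not say that the arrays of a group came from separate litters, so p-values measure the spread between pools. Precision is limited by how many arrays there are. The fit was tested on simulated data. Alternatives were other pseudocounts, scaling, filters, probe set rules, thresholds, variance models, the replicate number as a block and leaving out each array.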

Additional observations from a re-analysis of the deposited data

How the results depend on the processing

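With 3 arrays a group, single arrays moved the counts. Of the called genes, 6 of 12 (Adamts1, Adamts5, Adamts6, Adamts8, Adamtsl3 and Mmp2) were called in every fit that left out an array. Leaving out each array in turn gave between 1933 and 2365 called genes of all, against 2998 with all arrays, and between 2 and 5 of the 42 genes higher and between 4 and 8 lower, against 4 and 8. The lowest count of genes lower, 4, came without control replicate 1, and 5 came without SF1 replicate 1. The count higher was 2 without SF1 replicate 1 or control replicate 2. At an adjusted p under 0.01, 1558 genes were called, 1 of the 42 higher and 4 lower. With a fold of at least 1.5 in addition, 1279 genes were called, 1 of the 42 higher and 5 lower. Among brighter probe sets only, which kept 26 of the 42 genes, 2 were higher. The called genes Adamts8, Adamtsl3, Adamts7 and Adamts19, each with 1 probe set, were too dim to be in that fit. Variance trend with robust fitting gave 12 lower. With the replicate number as a block 2071 genes were called, 2 of the 42 higher and 6 lower. Same-numbered arrays did not deviate together (correlations of -0.06, -0.10 and -0.18). Deviations within groups of 3 arrays can say little on pairing, and the labels do not say what the numbers mean. Timp1 was also not called with a pseudocount of 1, with the replicate block (adjusted p = 0.0547), with variance trend and robust fitting or with array weights. Adamts7 was not called with a pseudocount of 1 (0.0508) or the replicate block (0.0507), and Adamtsl4 (0.0561) and Mmp23 (0.0683) were not called with the replicate block. The median log2 change of all probe sets was -0.07 as deposited, -0.03 after quantile normalization and -0.02 after median centring.

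The direction of some genes that were not called turned. After median centring Adamts10 gave 0.0078, Mmp1b 0.0031 and Mmp24 0.0097, and after quantile normalization Mmp24 gave 0.0113. With array weights Adamts4 gave -0.035, Mmp17 -0.0061 and Mmp19 -0.0449. When all probe sets of a gene were averaged, Adamts16 gave -0.0727, Adamts18 0.0878, Adamts4 -0.0158, Mmp19 -0.0472 and Timp4 0.47. Leaving out each array in turn, the change lay between -0.0829 and 0.12 for Adamts16, -0.16 and 0.10 for Adamts4, -0.0759 and 0.26 for Adamtsl5, -0.68 and 0.51 for Mmp12, and -0.025 and 0.15 for Mmp13. It lay between -0.24 and 0.43 for Mmp17, -0.0919 and 0.18 for Mmp19, -0.11 and 0.0502 for Mmp1b, -0.0826 and 0.0079 for Mmp24, and -0.041 and 1.85 for Mmp8. The cause was not tested. Choosing probe sets by mean intensity, an alternative added after seeing the data, changed the probe set of Mmp9 only among the 42 genes.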
